A study of Mus musculus with 5 samples.

Results

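The genes *Ermn*, *Nts*, *Hamp*, *Pth* and *Tnip3* are described here in cultured mouse T helper (Th) cells. They are 5 of the 22184 genes that 1 gene symbol names on the array, and they were chosen by their log2 values on these arrays, which were higher with IL-1β. Those differences are therefore given as a description, with no test. A rise with IL-1β does not describe all of them in full. *Ermn* and *Tnip3* were highest in Th1 cells, to which no IL-1β was added. *Pth* differed with IL-1β by no more than dim transcripts did when TGF-β was also present. *Hamp* and *Pth* exceeded the level of dim signals in 1 of the 5 arrays only.

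Naive CD4+ CD62L+ T cells came from the spleens of TRP-1 mice, which carry a T cell receptor transgene against a melanocyte protein and, by the strain name, a *Rag1* mutation. They were cultured for 3 days with peptide-loaded, irradiated, T cell-depleted splenocytes of C57BL/6 mice as antigen-presenting cells (APCs), and the methods name no sort ahead of the RNA step. RNA of each of the 5 cultures was hybridized once (Affymetrix Mouse Gene 2.0 ST), so every comparison sets 1 array against another, and no replicate and no p-value stands behind it. Th9(IL4+IL-1b) cells received IL-4 and IL-1β, each at 10 ng/ml. Th9(IL4+TGF-b+IL-1b) cells received the same with TGF-β at 1 ng/ml. Classic Th9(IL4+TGFb) cells received IL-4 and TGF-β at these doses without IL-1β. Th2 cells received IL-4 at 10 ng/ml and IL-2 at 100 U/ml. Anti-IFN-γ (10 µg/ml) was present in these 4 media. Th1 cells received IL-12 at 5 ng/ml, IL-2 at 100 U/ml and anti-IL-4 (10 µg/ml). Mice were 6 to 8 weeks old, of both sexes, an age given for animal experiments and not for these cultures by name.

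IL-1β differences were taken from Th9(IL4+IL-1b) against Th2 cells, without TGF-β, and from Th9(IL4+TGF-b+IL-1b) against classic Th9 cells, with TGF-β. These pairs share no array. The first pair also differs in the IL-2 of the Th2 medium, so IL-1β and the absence of IL-2 cannot be told apart there. Values are log2 units of signal as deposited, and 1 unit is a 2-fold difference. Levels of different genes come from different probes and were not set against each other. The array medians lay between 5.41 and 5.44. The 1109 transcripts of olfactory receptors (*Olfr*), genes of the nasal epithelium, served as the measure of dim signals. Their 95th percentile lay between 5.32 and 5.39 and their median between 3.35 and 3.45 in the 5 arrays. The SD of their differences was 0.29 in the pair without TGF-β and 0.27 in the pair with TGF-β. In bulk RNA, fewer cells of a type and less RNA per cell cannot be told apart.

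IL-1β is an inflammatory cytokine that signals through its receptor and MyD88 to the transcription factor NF-κB and to MAP kinases, and in T helper cells it acts beside the antigen receptor and the polarizing cytokines. The 5 genes are known from other settings. *Nts* encodes neurotensin, a peptide of gut endocrine cells and neurons. *Hamp* encodes hepcidin, the liver hormone that binds the iron exporter ferroportin and lowers plasma iron. *Pth* encodes parathyroid hormone, which raises blood calcium. *Ermn* encodes ermin, an actin-binding protein of myelinating oligodendrocytes. *Tnip3* encodes ABIN-3, a relative of the A20-binding inhibitors of NF-κB.

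The sequences upstream of 4 of the genes and of *Hamp2*, the near-identical paralog beside *Hamp*, are shown because *Hamp2* did not follow *Hamp* over the arrays and because a short element recurs upstream of the 3 hormone genes. They are the 250 bases before the RefSeq start site (GRCm38.p6), read 5′ to 3′ on the strand of the gene. Capitals mark matches to the NF-κB consensus, AP-1 (TGANTCA), the STAT3 element (TTCNNNGAA), the BMP element (GGCGCC) and a variant of the cAMP-response element (TGACATCA).
Nts: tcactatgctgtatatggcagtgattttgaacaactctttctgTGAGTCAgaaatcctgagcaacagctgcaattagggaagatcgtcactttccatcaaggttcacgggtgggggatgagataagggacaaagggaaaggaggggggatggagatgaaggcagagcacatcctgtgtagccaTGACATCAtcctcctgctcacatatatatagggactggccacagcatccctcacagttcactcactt
Hamp: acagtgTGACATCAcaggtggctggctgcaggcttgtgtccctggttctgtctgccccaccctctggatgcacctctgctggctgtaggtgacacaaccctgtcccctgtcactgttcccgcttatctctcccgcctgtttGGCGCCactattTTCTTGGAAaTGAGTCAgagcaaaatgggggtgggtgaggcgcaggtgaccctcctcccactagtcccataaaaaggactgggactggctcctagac
Hamp2: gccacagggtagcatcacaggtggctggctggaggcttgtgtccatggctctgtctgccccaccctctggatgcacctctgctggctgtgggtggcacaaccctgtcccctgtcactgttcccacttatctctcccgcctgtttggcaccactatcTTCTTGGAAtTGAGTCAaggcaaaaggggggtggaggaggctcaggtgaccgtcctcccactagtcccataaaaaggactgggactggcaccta
Pth: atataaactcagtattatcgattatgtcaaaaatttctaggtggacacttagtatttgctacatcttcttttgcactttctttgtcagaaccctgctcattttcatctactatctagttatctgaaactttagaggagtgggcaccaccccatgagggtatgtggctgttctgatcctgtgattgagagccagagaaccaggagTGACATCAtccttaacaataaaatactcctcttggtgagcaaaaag
Tnip3: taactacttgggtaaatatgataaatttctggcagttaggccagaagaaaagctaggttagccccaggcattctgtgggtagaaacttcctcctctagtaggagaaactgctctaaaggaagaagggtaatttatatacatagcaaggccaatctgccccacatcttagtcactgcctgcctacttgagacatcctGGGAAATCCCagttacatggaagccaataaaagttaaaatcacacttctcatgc

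The windows are chr10:102490419-102490668 for *Nts*, chr7:30944030-30944279 for *Hamp*, chr7:30924182-30924431 for *Hamp2* and chr7:113388574-113388823 for *Pth*, all on the minus strand, and chr6:65590148-65590397 for *Tnip3* on the plus strand. TGACATCA stood upstream of *Nts* (67 to 60 bases before the start), *Hamp* (244 to 237) and *Pth* (46 to 39), and not in the windows of *Ermn*, *Tnip3* and *Hamp2*. It was chosen after the sequences had been seen. Of 32851 RefSeq promoter windows of the same length, 2.93% held it. The full cAMP-response element TGACGTCA was in 1.55% of all windows and in none of the 5 genes. AP-1 matches were upstream of *Nts* (207 to 201 bases before the start), *Hamp* (87 to 81) and *Hamp2* (84 to 78), against 6.75% of all windows. The NF-κB consensus matched upstream of *Tnip3* alone of the 5 genes (54 to 45 bases before the start), against 7.25% of all windows. The STAT3 element was upstream of *Hamp* (97 to 89) and *Hamp2* (94 to 86), against 7.02% of all windows. GGCGCC, also chosen after the sequences were seen, was upstream of *Hamp* (109 to 104) and not of *Hamp2*, against 9.59% of all windows. Of the remaining motifs searched, the SMAD element CAGACA was upstream of *Hamp* and *Hamp2* (17.1% of all windows), the E-box CANNTG upstream of *Nts*, *Hamp* and *Hamp2* (66.2%), and the STAT6 element (5.85%) and GTCTAGAC (0.167%) upstream of none of the 5. Both strands were searched, none of the matches given in letters or positions here overlapped another, and the window of *Ermn* held no match to any of these motifs. A match is a run of letters and not a measured binding site.

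Without TGF-β, all 5 genes were at least 2-fold higher in Th9(IL4+IL-1b) than in Th2 cells, where 39 of 22184 genes (0.176%) were, and 0 of the 5 were 2-fold lower, against 0.0766% of all genes. The rule used this contrast, so the count is no finding. *Hamp* and *Pth* were in the dim range in Th2 cells, and with dim values set to the 95th percentile of the *Olfr* transcripts neither was 2-fold higher (0.50 and 0.10). With TGF-β, 4 of the 5, all but *Pth*, were at least 2-fold higher in Th9(IL4+TGF-b+IL-1b) than in classic Th9 cells, against 28 of 22184 genes (0.126%), and 0 were 2-fold lower, against 0.113%. For *Hamp* this call rests on 2 arrays in the dim range, at 4.34 in Th9(IL4+TGF-b+IL-1b) and 2.79 in classic Th9 cells, and on the scale of log2(value + 16) its difference was 0.66, under 2-fold. In both pairs 14 genes (0.0631%) were 2-fold higher. The median difference of the 5 genes was 2.37 without and 1.59 with TGF-β, and over all genes it was -0.01 in each pair. No *Olfr* transcript differed as much as any of the 5 genes without TGF-β, which is no finding either, as they were chosen for this difference. Of the 1109, 6 were 2-fold higher there, and 1 was with TGF-β.

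**Figure D1:**
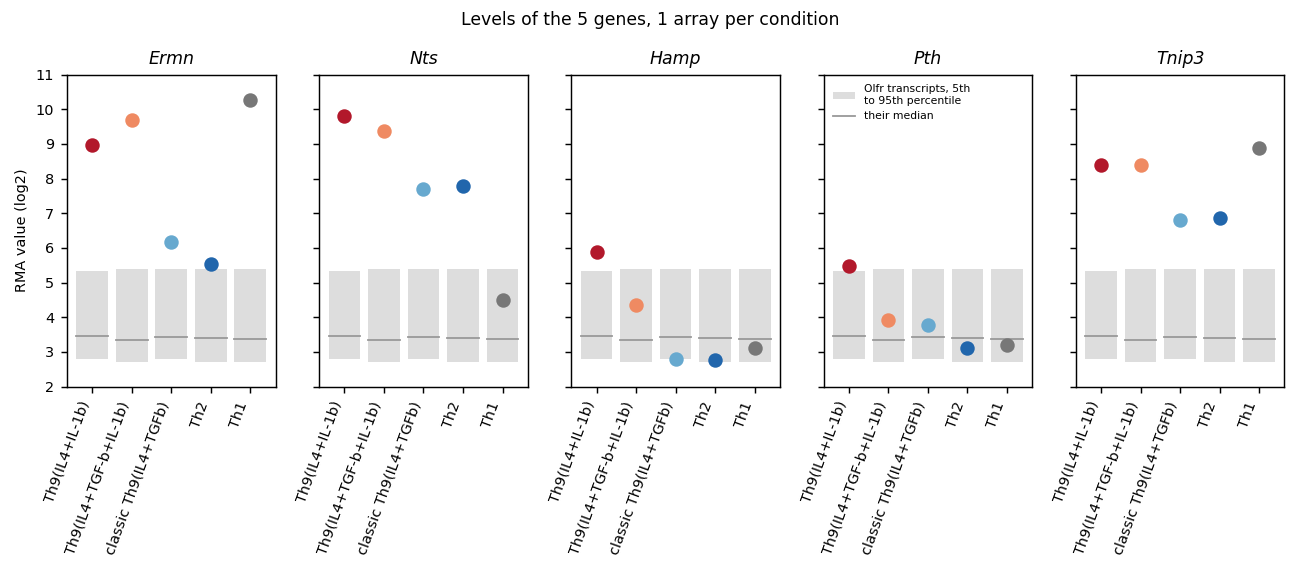
Level of each gene (vertical axis, RMA value on the log2 scale) in the 5 arrays, 1 point per array. Grey boxes span the 5th to 95th percentile of the 1109 Olfr transcripts of the same array and the grey line is their median. Ermn and Tnip3 are highest in Th1 cells, at 10.26 and 8.89, Nts is lowest in Th1 cells, at 4.50, and Hamp and Pth leave the grey box upwards in Th9(IL4+IL-1b) cells alone.

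*Nts*, on chromosome 10 (102481756 to 102490418, GRCm38.p6), encodes the precursor that is cut into neurotensin and neuromedin N. Its value was 9.80 in Th9(IL4+IL-1b), 9.38 in Th9(IL4+TGF-b+IL-1b), 7.71 in classic Th9, 7.77 in Th2 and 4.50 in Th1 cells. Both arrays with IL-1β lay above the other 3, and the Th1 array lay far below all others. The 2 arrays of IL-4-treated cells without IL-1β differed by 0.07, less than the SD of the *Olfr* differences between them (0.28). The difference with IL-1β was 2.03 without TGF-β (4.08-fold, place 8 of 22184 genes) and 1.67 with TGF-β (3.18-fold, place 6). No *Olfr* transcript was brighter in either array with IL-1β and 1 was brighter in classic Th9 and in Th2 cells. In Th1 cells 169 *Olfr* transcripts were brighter, and the value lay below their 95th percentile of 5.39. *Nts* was thus above the dim signals in Th2 and classic Th9 cells, without added IL-1β. Against Th1 cells, Th9(IL4+IL-1b) cells differed by 5.30. With the Th1 value set to the 95th percentile of the *Olfr* transcripts, which takes it as undetected, the difference was 4.41, or 21.3-fold.

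Neurotensin acts on the receptors encoded by *Ntsr1* and *Ntsr2* and binds sortilin, encoded by *Sort1*. *Ntsr1* was at 4.38 in Th9(IL4+IL-1b), 4.69 in Th9(IL4+TGF-b+IL-1b), 4.60 in classic Th9, 4.62 in Th2 and 4.54 in Th1 cells, below the 95th percentile of the *Olfr* transcripts in every array. *Ntsr2* lay between 6.88 and 7.05 and *Sort1* between 6.09 and 6.46. Neither receptor gene followed *Nts*. Of 14 measured genes for neurotensin receptors and for the proteases that make or degrade the peptide (of 15 listed), 0 were 1.5-fold higher or lower in either IL-1β pair, against 1.26% of all genes higher and 1.14% lower without TGF-β and 0.865% and 1.1% with it. Their median differences were -0.05 without and 0.01 with TGF-β.

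*Hamp*, on chromosome 7 (30942368 to 30944029), was at 5.88 in Th9(IL4+IL-1b), 4.34 in Th9(IL4+TGF-b+IL-1b), 2.79 in classic Th9, 2.78 in Th2 and 3.11 in Th1 cells. The Th9(IL4+IL-1b) array alone lay above the 95th percentile of the *Olfr* transcripts, and the other 4 lay below it. The number of *Olfr* transcripts brighter than *Hamp* was 27 in Th9(IL4+IL-1b), 206 in Th9(IL4+TGF-b+IL-1b), 1056 in classic Th9, 1010 in Th2 and 754 in Th1 cells. No order is read among the 4 arrays in the dim range. The difference with IL-1β was 3.10 without TGF-β (8.58-fold, place 3 of 22184 genes) and 1.56 with TGF-β (2.94-fold, place 8). The first size rests on a denominator in the dim range and the second on 2 dim values. With values under the 95th percentile of the *Olfr* transcripts set to it, the first difference was 0.50 (1.41-fold), and for the second both arrays lay under it and no difference remained to be given.

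*Hamp2*, 18.2 kb away, encodes a second hepcidin in mice, and its upstream window was identical to that of *Hamp* at 227 of 253 aligned positions (89.7%). *Hamp2* was at 3.88 in Th9(IL4+IL-1b), 4.08 in Th9(IL4+TGF-b+IL-1b), 3.81 in classic Th9, 4.03 in Th2 and 4.43 in Th1 cells. It stayed in the dim range in every array and differed by -0.15 without and 0.28 with TGF-β, which is about the SD of the *Olfr* differences. Each symbol had 1 transcript cluster of its own. Probe sequences were not used here, so cross-hybridization between the 2 paralogs was not tested.

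In the liver, hepcidin is under the control of BMP and SMAD proteins with hemojuvelin, HFE and transferrin receptor 2, and of IL-6 through gp130 and STAT3. Of 25 measured paralog and regulator genes (26 listed), 1 was 1.5-fold higher and 1 lower in each IL-1β pair. Of all genes, 1.26% were 1.5-fold higher and 1.14% lower without TGF-β, and 0.865% and 1.1% with it. The median differences of the list were -0.02 without and -0.05 with TGF-β. *Il6* itself was the higher one, by 0.71 without TGF-β and by just under 2-fold with it. It was at 4.56 in Th9(IL4+IL-1b), 4.27 in Th9(IL4+TGF-b+IL-1b), 3.27 in classic Th9, 3.85 in Th2 and 3.74 in Th1 cells, below the 95th percentile of the *Olfr* transcripts in every array. *Il6st*, which encodes gp130, was the lower one, with a difference of -0.79 without and -0.59 with TGF-β. Its value was 8.95 in Th9(IL4+IL-1b) and 9.33 in Th9(IL4+TGF-b+IL-1b) against 9.92 in classic Th9 and 9.75 in Th2 cells. Of 14 measured genes of iron transport and storage (15 listed), 0 were 1.5-fold higher in either pair. *Steap3*, a ferrireductase of endosomes, was lower in the pair without TGF-β, 1 gene of 14 against 1.14% of all genes. Its difference was -0.59 without TGF-β (6.37 in Th9(IL4+IL-1b) and 6.96 in Th2 cells) and -0.27 with it. *Slc40a1*, which encodes the hepcidin target ferroportin, lay between 4.14 and 4.39, in the dim range of every array. *Tfrc*, the transferrin receptor of dividing cells, lay between 11.30 and 11.67.

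*Pth*, on chromosome 7 (113385576 to 113388672), was at 5.48 in Th9(IL4+IL-1b), 3.92 in Th9(IL4+TGF-b+IL-1b), 3.79 in classic Th9, 3.11 in Th2 and 3.21 in Th1 cells. A single array, Th9(IL4+IL-1b), stood apart from the other 4. The number of brighter *Olfr* transcripts was 44 there, 298 in Th9(IL4+TGF-b+IL-1b), 369 in classic Th9, 767 in Th2 and 665 in Th1 cells. The value of 5.48 exceeded the 95th percentile of the *Olfr* transcripts of its array (5.32) by a small margin. The difference with IL-1β was 2.37 without TGF-β (5.17-fold, place 6 of 22184 genes) and 0.13 with TGF-β (1.10-fold, place 4601), and 0.13 is inside the *Olfr* SD of 0.27. With dim values set to the 95th percentile, the first difference was 0.10 (1.07-fold).

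Parathyroid hormone and the related PTHrP signal through the receptor encoded by *Pth1r*, and the hypothalamic peptide TIP39, encoded by *Pth2*, acts on the receptor of *Pth2r*. *Pth1r* lay between 5.28 and 5.52, *Pth2r* between 4.30 and 4.48 and *Pth2* between 5.85 and 6.08. *Pth2r* was in the dim range in every array, and *Pth1r* was in it in Th9(IL4+IL-1b) and classic Th9 cells. As *Pth* itself was in the dim range in each array but Th9(IL4+IL-1b), no shared or separate profile is read. *Pthlh*, the gene of PTHrP, had no cluster with its symbol alone and is not given. Of 10 measured genes of the family, its receptors and its regulators (13 listed), 0 were 1.5-fold higher or lower in either pair. The shares over all genes were 1.26% higher and 1.14% lower without TGF-β, and 0.865% and 1.1% with it. The median differences of the list were -0.11 without and -0.01 with TGF-β.

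*Ermn*, on chromosome 2 (58045115 to 58052864), was at 8.98 in Th9(IL4+IL-1b), 9.69 in Th9(IL4+TGF-b+IL-1b), 6.18 in classic Th9, 5.53 in Th2 and 10.26 in Th1 cells. The Th1 array and both arrays with IL-1β were high, and the 2 remaining arrays were low. No *Olfr* transcript was brighter than *Ermn* in the 3 high arrays. In classic Th9 cells 17 and in Th2 cells 46 of 1109 were brighter, so that the lowest value lay just above the 95th percentile of the dim signals (5.38). The difference with IL-1β was 3.45 without TGF-β (10.9-fold, place 1 of 22184 genes) and 3.51 with TGF-β (11.4-fold, place 2). Against Th1 cells, Th9(IL4+IL-1b) cells were lower by 1.28 (8.98 in Th9(IL4+IL-1b) and 10.26 in Th1 cells). The gaps along the order were 0.57 between Th1 and Th9(IL4+TGF-b+IL-1b), 0.71 between the arrays with IL-1β, 2.80 down to classic Th9 and 0.64 down to Th2 cells.

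Ermin shares an actin-binding C-terminus with the ERM proteins ezrin, radixin and moesin, which tie the cell membrane to the cortex. *Ezr* lay between 11.28 and 11.69 and *Msn* between 12.51 and 12.65. *Rdx* differed by -0.03 and -0.32 without and with TGF-β. Of 8 measured genes for ERM proteins, their kinases and partners (11 listed), 0 were 1.5-fold higher or lower in either pair, with medians of -0.00 without and -0.12 with TGF-β. The shares over all genes were 1.26% higher and 1.14% lower without TGF-β, and 0.865% and 1.1% with it.

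*Tnip3*, on chromosome 6 (65590398 to 65634040), was at 8.38 in Th9(IL4+IL-1b), 8.39 in Th9(IL4+TGF-b+IL-1b), 6.80 in classic Th9, 6.87 in Th2 and 8.89 in Th1 cells. As for *Ermn*, Th1 cells and both cultures with IL-1β were high and the other 2 low. Between 1 and 4 *Olfr* transcripts were brighter in any array. The difference with IL-1β was 1.51 without TGF-β (2.85-fold, place 9 of 22184 genes) and 1.59 with TGF-β (3.02-fold, place 7). The arrays with IL-1β differed from each other by 0.01 and those of Th2 and classic Th9 cells by 0.07, both inside the *Olfr* SD of 0.28.

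The paralogs and partners of *Tnip3* moved less. *Tnip1*, which encodes ABIN-1, differed by 0.19 in each pair and lay between 9.26 and 9.74. *Tnip2*, which encodes ABIN-2, differed by 0.11 without and 0.24 with TGF-β. *Tnfaip3*, the gene of A20, was at 9.53 in Th9(IL4+IL-1b) and 9.49 in Th9(IL4+TGF-b+IL-1b) against 9.01 in classic Th9 and 9.19 in Th2 cells, with differences of 0.34 without and 0.48 with TGF-β. Of 9 measured genes of this group (10 listed), 0 were 1.5-fold higher or lower in either pair, and the medians were 0.07 and 0.04. The shares over all genes were 1.26% higher and 1.14% lower without TGF-β, and 0.865% and 1.1% with it.

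Genes of NF-κB and of the IL-1 receptor were also followed. The 13 measured NF-κB subunits, inhibitors and targets (14 listed) had median differences of 0.21 without and 0.26 with TGF-β. Among them, 0 reached 1.5-fold, against 1.26% of all genes higher and 1.14% lower without TGF-β, and 0.865% and 1.1% with it. The farthest was *Traf1*, an adaptor whose gene is an NF-κB target, with 0.58 and 0.56. It was at 10.12 in Th9(IL4+IL-1b) and 9.94 in Th9(IL4+TGF-b+IL-1b) against 9.38 in classic Th9, 9.54 in Th2 and 10.32 in Th1 cells, the order of high and low arrays also seen for *Tnip3*. Of 12 measured genes of the IL-1 receptor and its signaling (13 listed), 1 was 1.5-fold higher in each pair, against 1.26% of all genes without and 0.865% with TGF-β. This was *Il1r2*, the decoy receptor, higher by 0.87 without and 1.08 with TGF-β. *Il1r2* was at 8.73 in Th9(IL4+IL-1b) and 8.31 in Th9(IL4+TGF-b+IL-1b) against 7.23 in classic Th9, 7.86 in Th2 and 7.70 in Th1 cells. The signaling receptor *Il1r1* was at 7.53 in Th9(IL4+IL-1b), 7.43 in Th9(IL4+TGF-b+IL-1b), 7.20 in classic Th9, 7.71 in Th2 and 5.38 in Th1 cells.

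**Figure D2:**
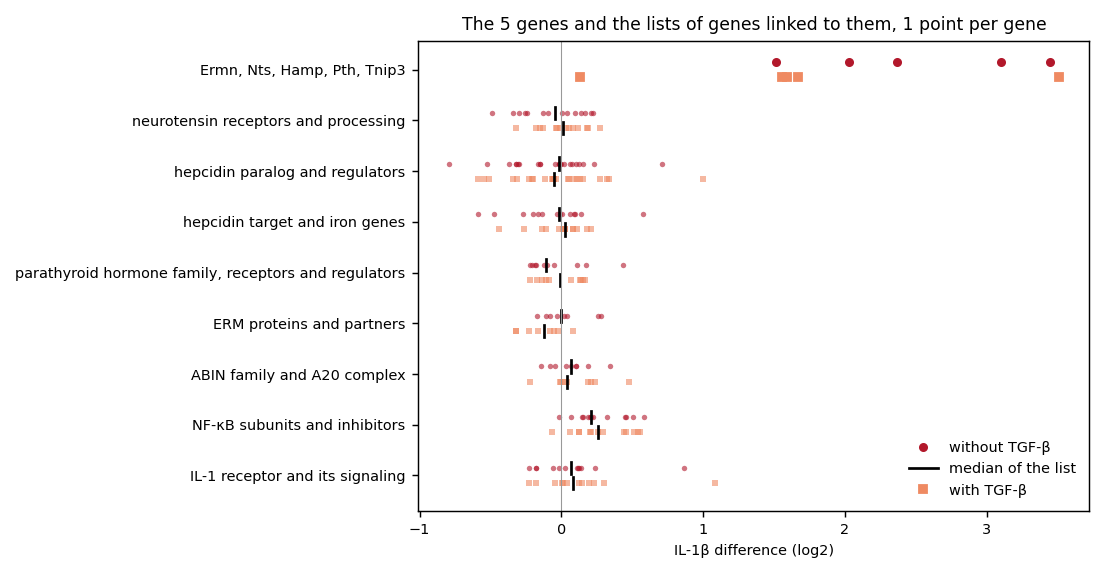
IL-1β differences (horizontal axis, log2) of the 5 genes in the top row and of every measured gene of 8 lists linked to them below, without TGF-β (circles, Th9(IL4+IL-1b) minus Th2) and with TGF-β (squares, Th9(IL4+TGF-b+IL-1b) minus classic Th9). Black bars are the list medians, which lie between -0.11 and 0.21 without TGF-β and between -0.12 and 0.26 with it. The 5 genes lie between 1.51 and 3.45 without TGF-β and between 0.13 (Pth) and 3.51 with it. They were chosen for higher values with IL-1β, so their distance from the lists is no finding.

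TGF-β differences were taken from the same 4 arrays. Of these, only the Th2 culture received IL-2. In the pair without IL-1β, TGF-β and the absence of IL-2 therefore cannot be told apart. Without IL-1β, classic Th9 against Th2 cells, 0 of the 5 genes were 2-fold higher or lower, against 0.18% of all genes higher and 0.311% lower. The differences were 0.64 for *Ermn*, -0.07 for *Nts*, 0.01 for *Hamp*, 0.68 for *Pth* and -0.07 for *Tnip3*. With IL-1β, Th9(IL4+TGF-b+IL-1b) against Th9(IL4+IL-1b) cells, *Hamp* differed by -1.54 and *Pth* by -1.56, which makes 2 of 5 genes 2-fold lower against 0.293% of all genes, and 0 of 5 higher against 0.104%. Both genes were in the dim range in Th9(IL4+TGF-b+IL-1b) cells, and with dim values set to the 95th percentile of the *Olfr* transcripts neither was 2-fold lower (-0.50 for *Hamp* and -0.10 for *Pth*). On the scale of log2(value + 16), *Hamp* was at -1.05 and *Pth* at -0.96, under 2-fold. *Ermn* differed by 0.71, *Nts* by -0.43 and *Tnip3* by 0.01. Built from the arrays of the IL-1β pairs, these differences are no further evidence.

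**Figure D3:**
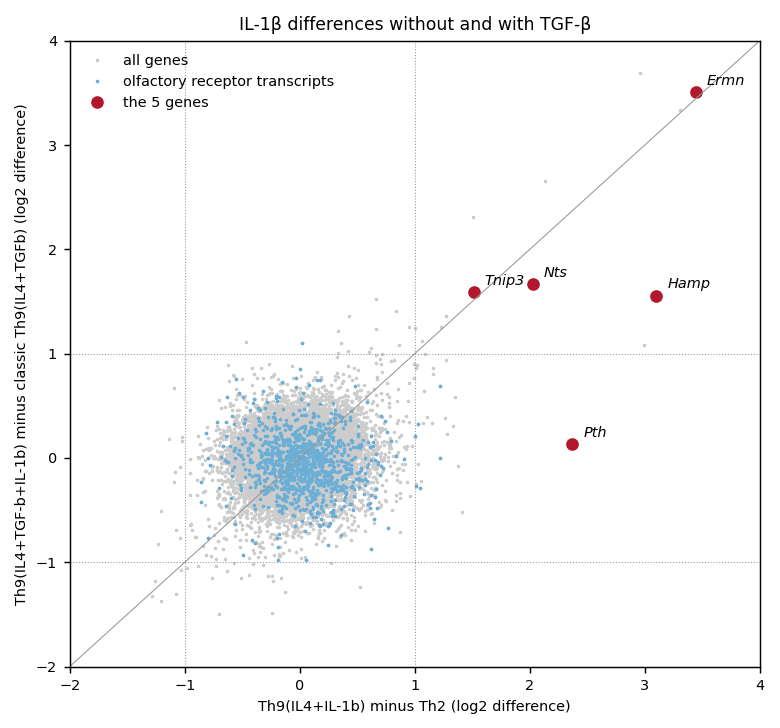
Difference between Th9(IL4+TGF-b+IL-1b) and classic Th9 cells (vertical axis, log2) against that between Th9(IL4+IL-1b) and Th2 cells (horizontal axis, log2) for 22184 genes (grey), the 1109 Olfr transcripts (blue) and the 5 genes (red). Dotted lines mark 2-fold and the diagonal marks equal differences. Ermn, Nts and Tnip3 lie near the diagonal, and Hamp and Pth lie below it by 1.54 and 2.24. Hamp and Pth were in the dim range in each of these arrays but Th9(IL4+IL-1b).

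The IL-1β difference with TGF-β minus that without it was 0.06 for *Ermn*, 0.08 for *Tnip3* and -0.36 for *Nts*. For the *Olfr* transcripts this quantity had an SD of 0.41, and 951, 914 and 412 of 1109 lay as far from 0 as *Ermn*, *Tnip3* and *Nts* did. For *Hamp* it was -1.54, place 6 from the lowest of 22184 genes, and for *Pth* -2.24, the lowest place, and 0 *Olfr* transcripts lay as far out as either. The values of *Hamp* and *Pth* in the 3 other arrays involved were within the range of the *Olfr* transcripts, so this difference rests on the Th9(IL4+IL-1b) array. Of the cultures involved, only Th2 received IL-2, so the absence of IL-2 enters this quantity as well.

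Across the other comparisons, all 5 genes were at least 2-fold higher in Th9(IL4+IL-1b) than in classic Th9 cells and 0 were lower, against 0.613% of all genes higher and 0.374% lower, with differences of 2.80 for *Ermn*, 2.09 for *Nts*, 3.10 for *Hamp*, 1.69 for *Pth* and 1.58 for *Tnip3*. Against Th1 cells, *Nts* (5.30), *Hamp* (2.77) and *Pth* (2.27) were 2-fold higher, against 1.3% of all genes, *Ermn* (-1.28) was 2-fold lower, against 0.82%, and *Tnip3* was at -0.51. *Hamp* and *Pth* were in the dim range in classic Th9 and Th1 cells. With dim values set to the 95th percentile of the *Olfr* transcripts, neither was 2-fold higher over classic Th9 cells (0.50 and 0.0933) or over Th1 cells (0.49 and 0.0916). These comparisons share the Th9(IL4+IL-1b) array with the pair without TGF-β.

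Over the 5 arrays, 3 patterns were described after the values had been seen. *Ermn* and *Tnip3* were at least 2-fold higher in Th1 cells and both cultures with IL-1β than in Th2 and classic Th9 cells. The lowest of the high arrays exceeded the highest of the low arrays by 2.80 for *Ermn* and 1.51 for *Tnip3*. Only 1 other gene of 22184 did so (3 in all, 0.0135%), *Il21*, the cytokine of follicular helper and Th17 cells, by 1.49. *Nts* was at least 2-fold higher in both cultures with IL-1β than in the other 3, by 1.60. Of 22184 genes, 6 (0.027%) met this in their deposited values, among them *Hamp* with 1.23, a gap between 2 values in the dim range (4.34 in Th9(IL4+TGF-b+IL-1b) and 3.11 in Th1 cells) that sets no order. The other 4 were the type 2 cytokine *Il13*, the Th9 cytokine *Il9*, the neutrophil chemokine *Cxcl3* and *Sval1*. In deposited values, *Hamp* and *Pth* were above each of the other 4 arrays in Th9(IL4+IL-1b) cells, by 1.54 and 1.56. The other 4 values were dim for both genes, and with these set to the 95th percentile of the *Olfr* transcripts neither gene was 2-fold higher (0.50 or less for *Hamp* and 0.10 or less for *Pth*). Deposited values of 5 further genes (7 in all, 0.0316%) were 2-fold higher in this way, *Csf2* (the cytokine GM-CSF), *Gzmf* (a granzyme), *Inhba* (the activin A subunit), *Il13* and *Olfr60*, an olfactory receptor gene. Of all 41345 transcript clusters, 114 showed this last pattern, and 107 of these had no gene symbol in the annotation.

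When 18107 genes, without gene models, olfactory receptors and antigen receptor segments, were ordered by the sum of their 2 IL-1β differences, the 5 genes took places 1 (*Ermn*, 6.96), 5 (*Hamp*, 4.66), 8 (*Nts*, 3.70), 9 (*Tnip3*, 3.10) and 11 (*Pth*, 2.50). The others among the first 10 encode secreted immune mediators, *Il13* (6.64), *Il9* (6.64), *Il21* (4.78), *Csf2* (4.08), *Cxcl3* (3.81) and *Il1a* (2.64). *Il9* was at 10.84 in Th9(IL4+IL-1b), 12.11 in Th9(IL4+TGF-b+IL-1b), 8.77 in classic Th9, 7.53 in Th2 and 4.49 in Th1 cells. The 5 genes were chosen for higher values with IL-1β, so their places are no finding. Those of *Hamp* and *Pth* also rest on values in the dim range.

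For each gene, the 5 genes with the nearest profile over the 5 arrays were found by Euclidean distance after each profile was centred on its own mean. With 5 arrays and 18107 genes near profiles arise readily, and the arrays are shared, so distances are a description. Nearest to *Nts* were *Ccl17* (distance 1.11 log2 units), a chemokine for CCR4, *Cxcl3* (1.70), *Timd2* (1.76), *Mmp12* (1.76), a macrophage elastase, and *Plcd1* (1.84). *Ccl17* was at 9.04 in Th9(IL4+IL-1b), 8.86 in Th9(IL4+TGF-b+IL-1b), 8.03 in classic Th9, 8.32 in Th2 and 4.49 in Th1 cells. Like *Nts*, all 5 were lowest in Th1 cells.

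Nearest to *Hamp* were *Csf2* (1.22), *Il5* (1.38), *Il1b* (1.39), *Inhba* (1.45) and *Il1a* (1.46), the last a second ligand of the IL-1 receptor. *Csf2* was at 7.53 in Th9(IL4+IL-1b), 5.13 in Th9(IL4+TGF-b+IL-1b), 4.05 in classic Th9, 4.54 in Th2 and 5.53 in Th1 cells. *Il1b* was at 6.24 in Th9(IL4+IL-1b), 5.69 in Th9(IL4+TGF-b+IL-1b), 4.43 in classic Th9, 5.01 in Th2 and 4.84 in Th1 cells. Nearest to *Pth* were *Inhba* (0.86), *Mir98* (0.87), *Il5* (0.99), *Orm1* (1.04), an acute-phase protein, and *Gzmf* (1.08), so that *Il5* and *Inhba* were near both hormones. *Mir98* was in the dim range in every array. *Hamp* and *Pth* themselves were in the dim range in each array but Th9(IL4+IL-1b), so no nearness is read from the others. *Inhba* was at 6.79 in Th9(IL4+IL-1b), 5.77 in Th9(IL4+TGF-b+IL-1b), 5.19 in classic Th9, 5.44 in Th2 and 5.25 in Th1 cells.

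Nearest to *Ermn*, at larger distances, were *Il21* (2.39), *Ifitm3* (2.82), an interferon-induced restriction factor, *Mir29a* (2.92), *Esm1* (3.03) and *Me1* (3.15). *Il21* was at 7.87 in Th9(IL4+IL-1b), 7.79 in Th9(IL4+TGF-b+IL-1b), 5.14 in classic Th9, 5.74 in Th2 and 7.23 in Th1 cells. Unlike *Ermn*, *Il21* was lower in Th1 cells than in both cultures with IL-1β. Nearest to *Tnip3* were *Mir29a* (0.67), *Cysltr2* (0.83), a leukotriene receptor, *Rbx1-ps* (0.96), *Gadd45b* (1.01), a stress gene and NF-κB target, and *Mir1983* (1.07). *Mir29a*, also named for *Ermn*, and *Rbx1-ps* were in the dim range in every array. *Gadd45b* was at 9.91 in Th9(IL4+IL-1b), 9.76 in Th9(IL4+TGF-b+IL-1b), 9.10 in classic Th9, 9.26 in Th2 and 10.29 in Th1 cells, high and low in the same arrays as *Tnip3*. When Pearson's correlation chose the profiles in place of distance, 1 of the 5 named genes remained for *Ermn* and for *Nts*, 2 for *Hamp* and for *Pth*, and 3 for *Tnip3*.

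**Figure D4:**
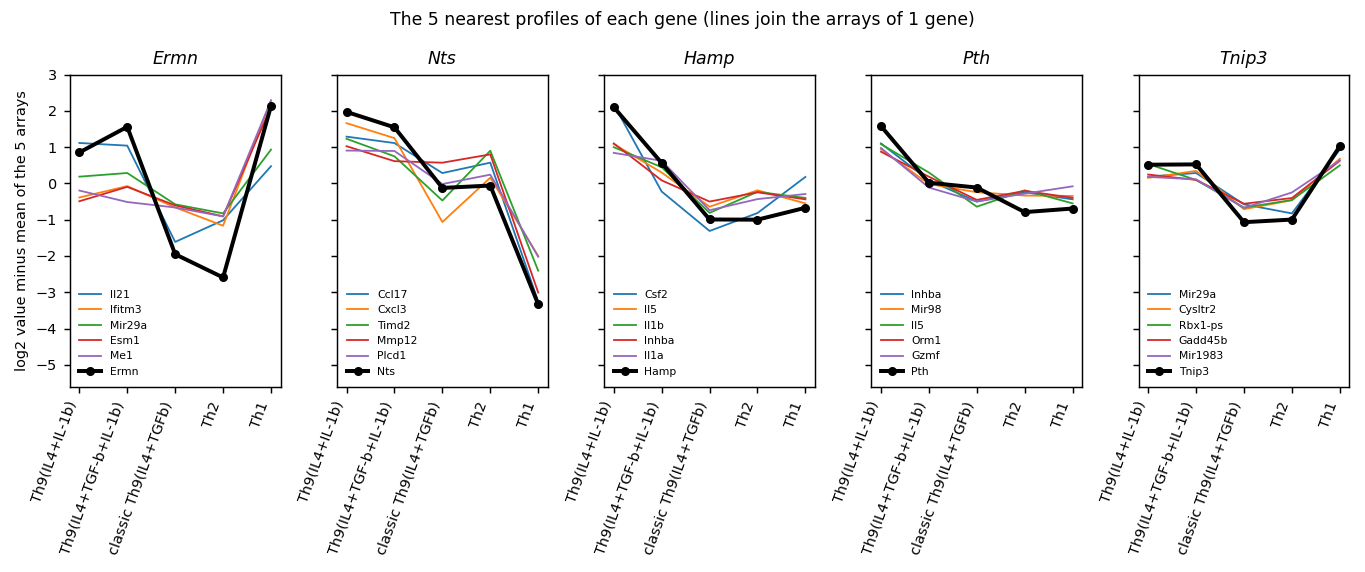
Log2 value minus the gene's mean over the 5 arrays (vertical axis) for each gene (black, with points) and its 5 nearest profiles by Euclidean distance (thin lines), in the 5 arrays. Lines only join the arrays of 1 gene. The profiles of Ermn's neighbours spread widely, at distances of 2.39 to 3.15, and those of Tnip3 and Pth are close, at 0.67 to 1.08.

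The genes beside each of the 5 on the chromosome were compared in the same pairs. Of 20 neighbours, the 2 nearest measured protein-coding genes on each side, 0 were 2-fold higher or lower in either IL-1β pair. The 2-fold shares over all genes were 0.176% higher and 0.0766% lower without TGF-β, and 0.126% and 0.113% with it. At such shares, a count of 0 is no finding about the neighbours. The differences of the neighbours ranged from -0.54 to 0.65 without TGF-β and from -0.39 to 0.45 with TGF-β. The 1 neighbour past 1.5-fold was *Ndnf*, 37.6 kb from *Tnip3*, with 0.65 without TGF-β (4.96 in Th9(IL4+IL-1b) and 4.31 in Th2 cells), both values in the dim range. In that pair, 1.26% of all genes were 1.5-fold higher. *Usf2*, a transcription factor gene 1.2 kb from *Hamp*, differed by -0.23 and -0.09. *Galnt5*, 4.1 kb from *Ermn*, differed by 0.18 and 0.00, and *Cytip*, a gene of leukocyte adhesion 76.3 kb on the other side, by 0.25 and 0.17. *Cytip* was at 10.74 in Th9(IL4+IL-1b), 11.02 in Th9(IL4+TGF-b+IL-1b), 10.85 in classic Th9, 10.49 in Th2 and 11.48 in Th1 cells. *Rassf9*, 21.8 kb from *Nts*, differed by -0.54 and 0.22, and *Btbd10*, the neighbour of *Pth*, by 0.33 and 0.11.

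**Figure D5:**
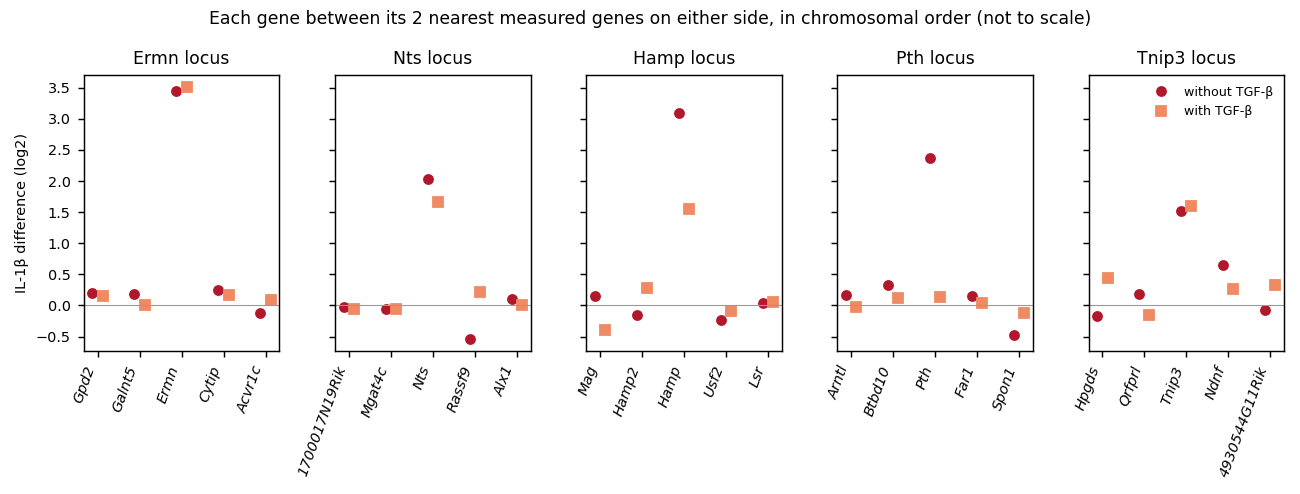
IL-1β differences (vertical axis, log2) of each gene, in the middle of its panel, and of its 2 nearest measured genes on each side in chromosomal order, without TGF-β (circles) and with TGF-β (squares). No neighbour passes 0.65, and each central gene except Pth with TGF-β (0.13) is at 1.51 or above. The central genes were chosen for higher values with IL-1β, so their distance from the neighbours is no finding.

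Markers of the cell types in which these genes are best known were compared in the same pairs. Of 11 measured oligodendrocyte markers, 12 hepatocyte markers, 5 parathyroid markers and 11 neuroendocrine markers, 0 were 1.5-fold higher or lower in either IL-1β pair. Over all genes, 1.26% were higher and 1.14% lower without TGF-β, and 0.865% and 1.1% with it. At such shares, a count of 0 in short lists is no finding. The defining hepatocyte gene *Alb*, for albumin, was at 3.97 in Th9(IL4+IL-1b), 4.01 in Th9(IL4+TGF-b+IL-1b), 3.86 in classic Th9, 3.90 in Th2 and 4.04 in Th1 cells, in the dim range. In all arrays, 8 of 12 hepatocyte and 9 of 11 neuroendocrine markers lay below the 95th percentile of the *Olfr* transcripts. Fewer did so among the oligodendrocyte markers (4 of 11) and the parathyroid markers (1 of 5). The 10 measured genes of T cell identity were above it in every array, with a median between 10.22 in Th9(IL4+IL-1b) and 10.56 in Th1 cells.

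Markers of cells other than T cells were also measured. All 11 measured B cell markers exceeded the 95th percentile of the *Olfr* transcripts in Th9(IL4+IL-1b), Th2 and Th1 cells and 10 did in Th9(IL4+TGF-b+IL-1b) and classic Th9 cells. Their median differed by -0.13 without and 0.07 with TGF-β, and 1 of them, *Fcer2a*, was 1.5-fold lower without TGF-β (-0.83). The median of 6 plasma cell markers was 9.19 in Th9(IL4+IL-1b), 6.67 in Th9(IL4+TGF-b+IL-1b), 6.45 in classic Th9, 8.85 in Th2 and 6.89 in Th1 cells. It was thus high in both arrays of IL-4-treated cells without TGF-β, and highest in Th9(IL4+IL-1b) cells. Of 13 macrophage and monocyte markers, *Lyz2* was 1.5-fold lower in both pairs (-1.07 and -0.69) and *Cd14*, in the dim range, was higher without TGF-β (0.78). Of 9 neutrophil markers, *Ly6g* (0.65) was higher and *Mpo* (-0.59) lower without TGF-β, and *Ly6g* was lower with it (-0.63). *Ly6g* was in the dim range in every array. No marker of mast cells and basophils (13), dendritic cells (8) or endothelium (9) reached 1.5-fold in either pair. The shares over all genes were 1.26% higher and 1.14% lower without TGF-β, and 0.865% and 1.1% with it. Whether APCs contributed to the signal of the 5 genes was not tested.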

How the data were processed

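Total RNA of 5 cultures was hybridized to Affymetrix Mouse Gene 2.0 ST arrays, 1 array per condition. Per the labels, the authors processed the scans with Affymetrix Expression Console and RMA, a method of background correction, quantile normalization and probe summary, and deposited log2 values per transcript cluster. Versions: not given in the sources used here. Background correction and normalization set the scale of dim values, so small values compress or stretch fold changes. The log2 values were used as deposited, and no test was possible with 1 array per condition. The number of arrays limits the precision.

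Clusters were named from the platform annotation where it gave 1 symbol (23525 of 41345 clusters, against 1816 with several and 16004 with none), and a gene was represented by its cluster with the highest mean, giving 22184 genes. Named genes were the 5 genes, their neighbours, paralogs and receptors, list genes past 1.5-fold in an IL-1β pair (up to 4 a list), the 5 nearest profiles of each gene and the 10 largest sums of the IL-1β differences. Further genes named for a list or a pattern were chosen after their values were seen. The members, lists and motifs were chosen with earlier results of these data known. Promoter sequences and coordinates came from RefSeq (GRCm38.p6), and 6 of 6 genes were found there. RefSeq coordinates are of the genes, not of the probes. The calculation was tested on simulated data of 41345 transcripts for the pair without TGF-β, where 100% of 4-fold changes were recovered and 24 unchanged transcripts were counted. The simulated noise was of the same size for bright and dim transcripts, so this checks the calculation and not the dim values of the arrays. Alternatives were centring on the median or 75th percentile, log2(value + 16), quantile normalization repeated, a floor at the 95th *Olfr* percentile, the mean over clusters, thresholds of 1.5-fold and 3-fold, all transcript clusters and correlation in place of distance. Calculations ran in Python (3.11.15), using pandas (2.3.3), numpy (2.4.6), matplotlib (3.10.9) and scipy (1.17.1).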

Additional observations from a re-analysis of the deposited data

How the results depend on the processing

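Centring, a second quantile normalization and the mean over clusters left each of the 30 differences of the 5 genes within 1 SD of the *Olfr* differences of its pair. The scale of dim values did not. With log2(value + 16), the difference of *Ermn* without TGF-β was 3.06 and that of *Nts* over Th1 cells was 4.56. *Hamp* was then at 1.71 without TGF-β and 0.66 with TGF-β, under 2-fold, at -1.05 for TGF-β with IL-1β, at 1.71 over classic Th9 and at 1.61 over Th1 cells. *Pth* was at 1.30 without TGF-β, at 0.27 for TGF-β without IL-1β, at -0.96 for TGF-β with IL-1β, again under 2-fold, at 1.03 over classic Th9 and at 1.26 over Th1 cells. With values floored at the 95th *Olfr* percentile, *Nts* over Th1 cells was at 4.41, and no difference of *Hamp* or *Pth* reached 2-fold. *Hamp* was at 0.50 without TGF-β, -0.50 for TGF-β with IL-1β, 0.50 over classic Th9 and 0.49 over Th1 cells, and *Pth* at 0.0958, -0.0959, 0.0933 and 0.0916 in the same order. No floored value was given for either gene for IL-1β with TGF-β or TGF-β without IL-1β, where both arrays lay under the floor.

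The count of genes 2-fold higher with IL-1β was 14 without and 15 with TGF-β under log2(value + 16), 14 and 18 with the floor, 279 and 192 at 1.5-fold, 8 and 7 at 3-fold, and 680 and 245 over all transcript clusters. For TGF-β without and with IL-1β it was 22 and 12 under log2(value + 16), 284 and 269 at 1.5-fold, 6 and 2 at 3-fold, and 245 and 139 over all clusters. Over classic Th9 cells it was 88 under log2(value + 16), 598 at 1.5-fold, 49 at 3-fold and 985 over all clusters, and over Th1 cells 873, 108 and 1341 for the last 3 settings. The order of the 5 arrays changed once, for *Hamp* under the second quantile normalization. No paired analysis was possible because each condition has 1 array, and no array could be left out of a condition.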

Other observations

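Of the 16004 transcript clusters without a gene symbol, 638 (3.99%) were 2-fold higher in Th9(IL4+IL-1b) than in Th2 cells, against 40 of 23525 clusters with 1 symbol (0.17%). In the pair with TGF-β, 217 unnamed clusters (1.36%) were 2-fold higher. In Th9(IL4+IL-1b) cells, 819 unnamed clusters (5.12%) were 2-fold higher than in classic Th9 cells and 1030 (6.44%) than in Th1 cells. In classic Th9 against Th2 cells the unnamed share was 1.27%. The larger shares thus came from comparisons that use the Th9(IL4+IL-1b) array. Among the 1810 genes that lay at or below the *Olfr* median in Th2 cells, 7 (0.387%) were 2-fold higher in Th9(IL4+IL-1b) cells, *Hamp* and *Pth* included. Among the 1774 such genes of classic Th9 cells, 2 (0.113%) were 2-fold higher in Th9(IL4+TGF-b+IL-1b) cells, *Hamp* included.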
